A study of Mus musculus with 4 samples.

Results

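CpG islands that male germ cells of control mice keep highly methylated are described here, with their levels in Np95fl/fl:Stra8-Cre germ cells. Islands were taken from the listed CpGs of the autosomes as merged overlapping runs of 30 CpGs spanning under 500 bp, with at least 10 CpGs measured in all 4 samples. An island was kept when its mean methylation level was 80% or more in both control samples. This rule kept 613 of 15958 islands, or 3.84%. A further 458 islands (2.87%) were intermediate, and 14887 (93.3%) averaged under 20% in controls and are called low islands below. The control values chose the islands, so the control levels and the difference between knockout and control islands are given as a description, without a test.

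The study measured DNA methylation by whole-genome bisulfite sequencing of PBAT libraries (post-bisulfite adaptor tagging) from male germ cells of mice aged 21 days. There were 2 Np95fl/fl:Stra8-Cre samples, called knockout, and 2 Np95fl/fl samples, called control. All mice carried the floxed Np95 gene and the knockout samples also carried Cre, which the Stra8 promoter drives in premeiotic male germ cells. Np95 is therefore deleted only in cells in which Cre has acted, and later germ cells descend from them. Methylation values do not show the deletion itself. Cells were picked as tubules and, per the labels, interstitial cells were removed by filtering with a 95 µm mesh. Sertoli cells lie inside the tubules. The number of autosomal cytosines with a value was 28863300 and 29376669 in knockout samples and 29616095 and 29354244 in control samples. Of 36805041 listed cytosines 60.8% had a value in all samples. The reads behind each value are unknown. A level between 0 and 100% cannot tell fewer methylated cells from fewer methylated molecules in every cell.

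CpG islands are CpG-rich stretches that in most vertebrate tissues stay unmethylated and often lie at gene starts. A minority is methylated, chiefly inside genes and in repeated DNA. Np95, also named Uhrf1, binds half-methylated CpGs behind the replication fork and recruits the methyltransferase Dnmt1, which copies the mark to the new strand.

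Many of the highly methylated islands occurred in several copies with the same spacing of CpGs, and such copies lay mostly outside genes. Promoter sequences from RefSeq (build GRCm38.p6) that hold such spacings are given as examples. Of the autosomal protein-coding and lncRNA genes 77.9% had a promoter window in the RefSeq table, 250 bases before to 50 after a start. A choice of 4 windows that held a run of 11 CpGs spaced as in highly methylated islands is printed first, 5′ to 3′, with the CpGs of such runs in capitals. None of these windows lay in an island itself, so none is a member of the set. They match islands in CpG spacing, and their other bases were not compared with those of an island. The window of the lncRNA gene Gm35240, at chr12:77553461-77553760 on the plus strand, held a spacing found in 7 islands of spacing group 1. That of the lncRNA gene Gm30645, at chr7:10471267-10471566 on the minus strand, held one found in 4 islands of spacing group 3. The windows of the lncRNA gene A230004M16Rik, at chr11:41710094-41710393 on the plus strand, and of Slc24a3, which encodes a sodium, potassium and calcium exchanger, at chr2:145242361-145242660 on the plus strand, matched 8 islands and 1 island of spacing group 4.
Gm35240: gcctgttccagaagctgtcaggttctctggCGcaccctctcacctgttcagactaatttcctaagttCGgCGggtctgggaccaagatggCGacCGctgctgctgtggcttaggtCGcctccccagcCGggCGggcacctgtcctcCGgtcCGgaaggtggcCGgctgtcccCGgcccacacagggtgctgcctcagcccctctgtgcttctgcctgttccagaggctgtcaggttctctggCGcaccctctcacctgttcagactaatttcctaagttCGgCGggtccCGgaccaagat
Gm30645: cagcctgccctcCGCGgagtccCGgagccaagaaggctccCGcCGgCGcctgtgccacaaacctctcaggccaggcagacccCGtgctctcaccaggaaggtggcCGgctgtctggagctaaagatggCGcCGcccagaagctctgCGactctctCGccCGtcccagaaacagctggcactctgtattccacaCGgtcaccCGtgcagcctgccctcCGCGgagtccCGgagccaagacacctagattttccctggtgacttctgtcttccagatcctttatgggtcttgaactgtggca
A230004M16Rik: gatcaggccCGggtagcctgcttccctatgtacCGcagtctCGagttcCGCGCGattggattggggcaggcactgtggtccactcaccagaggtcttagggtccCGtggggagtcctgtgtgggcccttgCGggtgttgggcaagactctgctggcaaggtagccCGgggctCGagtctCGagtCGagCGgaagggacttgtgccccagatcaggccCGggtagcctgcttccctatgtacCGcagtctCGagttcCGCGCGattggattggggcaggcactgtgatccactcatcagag
Slc24a3: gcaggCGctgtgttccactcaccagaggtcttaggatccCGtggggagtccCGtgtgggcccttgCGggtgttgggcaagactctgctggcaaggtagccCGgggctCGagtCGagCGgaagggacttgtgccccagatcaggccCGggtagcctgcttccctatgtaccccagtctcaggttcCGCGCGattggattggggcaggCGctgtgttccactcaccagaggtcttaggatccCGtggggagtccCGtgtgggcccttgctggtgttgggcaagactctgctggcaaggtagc
Over the 5 measured CpGs of the A230004M16Rik window the level was 36.5% and 45.6% in knockout samples, against 58.7% and 57.9% in control samples. Over the 2 measured CpGs of the Slc24a3 window it was 53.6% and 70.6% in knockout samples, against 88.5% and 64.6% in control samples, so the groups overlapped there. The windows of Gm35240 and Gm30645 held no CpG that was measured in all 4 samples. The A230004M16Rik and Slc24a3 windows, from different chromosomes, were identical at 92.8% of 235 aligned bases. All 18 CpGs of the Gm30645 window and all 16 of the Gm35240 window belong to such runs.

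A promoter window and a highly methylated island overlapped at 2 places, and these sequences show what the rare case looks like. The CpGs inside the island are in capitals. The window of the lncRNA gene Gm31057, at chr10:80546661-80546960 on the plus strand, overlaps an island inside Rexo1 at chr10:80546322-80546781. Rexo1 encodes an RNA exonuclease. The window of the lncRNA gene Gm52531, at chr2:150197602-150197901 on the minus strand, overlaps an island at chr2:150197810-150198298.
Gm31057: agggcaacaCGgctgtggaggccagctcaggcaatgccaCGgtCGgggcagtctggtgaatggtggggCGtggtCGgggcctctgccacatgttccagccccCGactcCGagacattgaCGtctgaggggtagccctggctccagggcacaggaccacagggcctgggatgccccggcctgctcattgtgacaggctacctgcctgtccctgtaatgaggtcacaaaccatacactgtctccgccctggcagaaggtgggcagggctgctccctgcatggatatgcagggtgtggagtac
Gm52531: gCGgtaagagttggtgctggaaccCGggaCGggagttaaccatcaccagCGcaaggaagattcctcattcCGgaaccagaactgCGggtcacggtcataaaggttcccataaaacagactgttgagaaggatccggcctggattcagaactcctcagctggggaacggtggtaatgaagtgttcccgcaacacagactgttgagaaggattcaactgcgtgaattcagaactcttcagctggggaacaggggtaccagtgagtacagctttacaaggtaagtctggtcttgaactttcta
Over the 10 measured CpGs of the Gm31057 window the level was 50.8% and 67.6% in knockout samples, against 87.1% and 93.9% in control samples. Over the 4 measured CpGs of the Gm52531 window it was 60.1% and 63.7% in knockout samples, against 73.4% and 81.6% in control samples. At both windows each knockout sample was below each control sample.

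Highly methylated islands kept part of their methylation in knockout germ cells, and none of them fell to the average of low islands. Their mean level was 58.2% and 58.4% in knockout samples, against 87.2% and 88.7% in control samples. These values make 58.3% ± 0.159 in knockout and 87.9% ± 1.05 in control (SD, n = 2 each), a difference of -29.6 points, and knockout samples retained 66.3% of the control level. The knockout mean of single islands ran between 29.6% and 79.6%. It was under 40% at 10 islands, between 40 and 50% at 84, between 50 and 60% at 251, between 60 and 70% at 229 and at least 70% at 39. The median island stood at 59.0% and 59.1% in knockout samples and at 86.7% and 88.3% in control samples. Islands differed between the 2 knockout samples by a median of 4.21 points and between the 2 control samples by 2.08 points. Across the 613 islands the knockout samples correlated at Pearson r = 0.69, a description over islands that share the same 2 libraries. Intermediate islands averaged 41.2% and 40.8% in knockout samples, against 60.3% and 61.7% in control samples. Their retained share was 67.2%, so the retained share did not set the highly methylated islands apart from them. Low islands averaged 2.06% and 1.81% in knockout samples and 1.62% and 1.60% in control samples.

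Fitted over all 15958 islands, limma called 917 lower in knockout (5.75% of those tested) and 53 higher (0.332%). Without knockout replicate 1 it called 611 lower and 9 higher. The higher calls numbered 17 without control replicate 2, 35 without control replicate 1, 72 without knockout replicate 2 and 90 with the replicate number as a block. A call needed a difference of 10 points or more and a Benjamini-Hochberg adjusted p under 0.05. Of the 613 highly methylated islands it called 610 lower, and nothing is read from that share because the contrast holds the values that chose them. To keep the choice apart from the test, islands were chosen on control replicate 1 alone and tested against control replicate 2 alone. Of 641 islands so chosen, 625 (97.5%) were called lower, where 5.44% of all islands were. With the roles of the control samples exchanged, an alternative added after the data were seen, 678 of 701 (96.7%) were called lower, where 5.26% of all islands were. Low islands made up 14887 of the 15958, with a median level of 1.13% and 1.16% in control samples. An island at such a level cannot fall by 10 points, so it cannot be called lower. The shares over all islands were therefore held down in advance, and nothing is read from their contrast with the chosen islands. Both fits assume that the lone control varies like the knockout samples, and the knockout samples stayed the same. The calls use a variance shared between islands. With each island's own spread limma called 0 of 15958 islands, of which 1422 were lower at an unadjusted p under 0.05.

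Of the highly methylated islands 3 were not called lower. An island 1465 bp from the lncRNA gene Gm40034, at chr2:181919968-181920675, stood at 83.7% and 71.4% in knockout samples, against 89.8% and 90.1% in control samples. An island in the lncRNA gene Gm33384, at chr12:43670896-43671378, stood at 79.4% and 79.8% in knockout samples, against 85.9% and 92.4% in control samples. The remaining island, which starts at position 68449655 of chromosome 13, had a difference of -16.5 points. It was named after its values were seen. At the Gm40034 island the knockout samples differed from each other by more than knockout replicate 1 differed from the control samples.

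Highly methylated islands were small. Their median width was 557 bp (range 325 to 3595) with a median of 35 listed CpGs (range 30 to 248), and 593 of them (96.7%) were under 1 kb wide. Low islands had medians of 1055 bp and 75 CpGs. Intermediate islands were nearly as small as the set, with medians of 584 bp and 37 CpGs and 95.2% under 1 kb wide. The median density, 6.33 CpGs per 100 bp (range 4.16 to 9.23), was close to that of 30 CpGs in 500 bp. Merged runs can be less dense than a single run. The median highly methylated island had 60.9% of its cytosines measured in all samples, the median intermediate island 73.2% and the median low island 90.4%.

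Their position differed from that of low islands. Of 613 highly methylated islands 310 (50.6%) overlapped a RefSeq gene, against 95.3% of low islands and 57.2% of intermediate islands. An end of a protein-coding or lncRNA gene lay within 1 kb of 23 of them (3.75%), against 11489 low islands (77.2%) and 50 intermediate islands (10.9%). In all 293 lay inside a gene and over 1 kb from any such end. A promoter window of the RefSeq table overlapped 2 of the 595 islands on chromosomes with such windows (0.336%). This compares with 9210 of 14427 low islands (63.8%) and 13 of 449 intermediate islands (2.90%). The gene was protein-coding for 272 islands and an lncRNA gene for 23. The gene table gives only the start and end of each gene, so exon, intron or UTR is not given here. An annotated pseudogene lay within 1 kb of 23 islands, which stood at 58.0% and 57.9% in knockout samples and 86.5% and 87.2% in control samples, close to the other 590.

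The islands were spread over all 19 autosomes. They made up between 2.10% (chromosome 11) and 6.37% (chromosome 12) of the islands of a chromosome, and 5 and 12 of them lay in the first and last megabase of a chromosome. The nearest other highly methylated island was at a median of 959846 bp, and 71 islands (11.6%) had one within 100 kb. The nearest low island was at a median of 88979 bp, and within 10 kb for 86 islands (14.03%).

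Sharing of CpG spacing split the set into nearly equal parts that differed in place and level. A spacing was called shared when 10 successive distances between CpGs, with at least 4 different values, recurred exactly in another island in either direction. This held for 313 of 613 highly methylated islands (51.1%), for 153 of 458 intermediate islands (33.4%) and for 583 of 14887 low islands (3.92%). With runs of 8 distances the shares were 59.4%, 44.3% and 15.4%, and with 12 they were 39.3%, 22.7% and 2.87%. No genome sequence or repeat annotation was used here, so the copies are known by their spacing alone. Reads from near-identical copies may not be separable, and the placement of reads among copies was not tested.

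Islands with a shared spacing kept more methylation in knockout germ cells than the others. The 313 with a shared spacing averaged 61.4% and 61.9% in knockout samples, against 85.8% and 86.9% in control samples, a retained share of 71.4%. The 300 with no shared spacing averaged 54.9% and 54.8% in knockout samples, against 88.7% and 90.6% in control samples, a retained share of 61.2%. Shared minus unshared islands gave 6.50 and 7.03 points in knockout samples and -2.94 and -3.67 points in control samples. The order of the sets was thus opposite in knockout and control samples, in each of the 2 libraries of either genotype. The split was made after the data were seen and the control values are bounded by the rule, so it is given without a test. Only 30.03% of islands with a shared spacing lay in a gene, against 72.0% of the others, and the nearest low island was at a median of 217054 bp against 28686 bp. A median of 55.1% of cytosines was measured in all samples in the shared islands and 74.8% in the others.

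**Figure D1:**
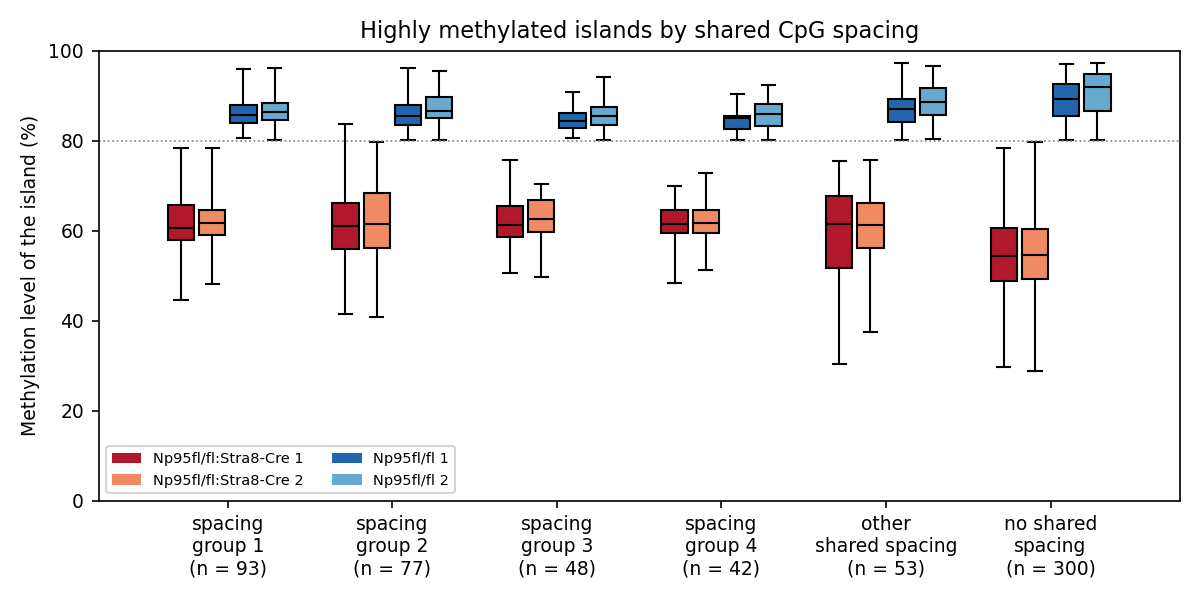
Methylation level of each highly methylated island (percent, vertical axis) by the sharing of CpG spacing, with knockout samples in red and control samples in blue; boxes give the quartiles and median over islands, whiskers the lowest and highest island, and the dotted line the 80% of the rule. The 4 largest spacing groups have knockout medians between 60.6 and 62.6%, against 54.4 and 54.5% for the 300 islands with no shared spacing.

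The gap between the sets was present in every subset compared. Inside genes, shared islands stood at 61.7% and 62.1% in knockout samples and the 216 others at 53.4% and 53.4%. Outside genes the values were 61.3% and 61.8% for shared islands and 58.6% and 58.6% for the 84 others, the smallest gap. Among islands at or above the median in the share of cytosines measured, shared islands stood at 61.5% and 61.7% and the others at 53.7% and 53.4% in knockout samples. Below that median the values were 61.3% and 62.0% against 57.1% and 57.6%. Among islands with a control mean of 90% or more, 43 shared islands stood at 66.4% and 66.4% in knockout samples and 156 others at 55.5% and 56.0%. The knockout level of shared islands stayed near 61% by place, density and measured share, while that of the others was lower inside genes and where more cytosines were measured.

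The shared islands fell mostly into 4 spacing groups, formed by linking islands that share a run. Spacing group 1 held 93 highly methylated islands on 19 chromosomes, spacing group 2 held 77 on 18, spacing group 3 held 48 on 19 and spacing group 4 held 42 on 19. None of the islands in these groups was low, and 10, 37, 26 and 7 further members were intermediate. Spacing group 1 averaged 62.0% and 62.3% in knockout samples, against 86.1% and 86.7% in control samples. Spacing group 2 averaged 61.1% and 61.6% in knockout samples, against 85.7% and 87.1% in control samples. Spacing group 3 averaged 62.1% and 62.6% in knockout samples, against 84.8% and 85.9% in control samples. The level of spacing group 4 was 61.8% and 62.0% in knockout samples, against 84.6% and 86.1% in control samples. The 4 groups thus lay between 61.1% and 62.6% in knockout samples, and their islands varied around these means by 4.67, 7.48, 4.32 and 3.53 points (SD between islands). Spacing group 5 stood apart, with 7 islands at 46.6% and 49.6% in knockout samples and 84.2% and 88.0% in control samples, and 6 of these lay in a gene. Its retained share was 55.9%, against 71.0 to 73.1% in the 4 large groups.

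Single CpGs of the repeated islands differed from each other in level within a run. In each large group the most frequent run of 11 CpGs was aligned over its copies. The copies lay in 20 of 93, 10 of 77, 15 of 48 and 15 of 42 islands of groups 1 to 4. The levels describe the run and not the whole group. The run of spacing group 1 had 20 copies and knockout means per CpG between 58.1% and 75.8%. In spacing group 3, with 15 copies, they lay between 44.1% and 80.2%, and in spacing group 4, with 15 copies, between 45.8% and 73.4%. Spacing group 2 had the widest range, 52.4% to 91.6%, over 10 copies. Its eighth CpG, 2 bp after the seventh, stood at 89.6% and 93.6% in knockout samples, against 93.8% and 93.7% in control samples, over 6 measured copies. CpG number 3 of that run stood at 52.5% and 52.3% in knockout samples, against 81.5% and 77.8% in control samples, over 5 measured copies. CpGs of the same run thus retained between 65.8% and 97.7% of the control level. Across the 11 CpGs of a run the knockout samples correlated at r = 0.976, 0.895, 0.939 and 0.977 in groups 1 to 4, as a description over CpGs of the same libraries. Copies varied around the mean of a CpG by 3.51 to 15.8 points (SD), and the runs were chosen after the data were seen.

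**Figure D2:**
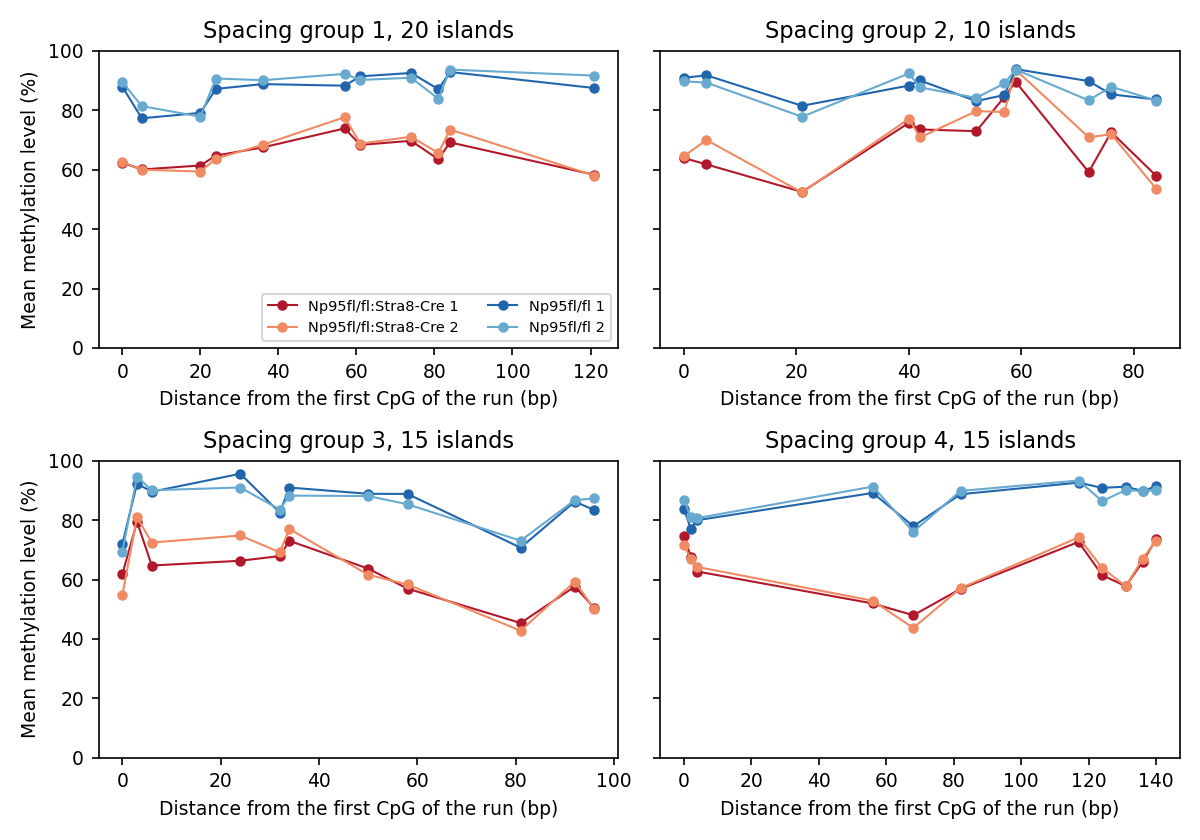
Mean methylation level (percent, vertical axis) of each of 11 aligned CpGs against its distance in bp from the first CpG, in the most frequent run of spacing groups 1 to 4, with knockout samples in red and control samples in blue. The knockout samples differ by at most 4.30, 11.7, 8.50 and 4.27 points at a CpG in groups 1 to 4. At the eighth CpG of spacing group 2 they stand at 89.6 and 93.6%, against 93.8 and 93.7% in control samples.

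The level in knockout samples went with the distance to the nearest CpG. Over all highly methylated islands, cytosines whose nearest CpG lay 2 bp away averaged 64.5% and 64.6% in knockout samples, against 86.8% and 88.0% in control samples. At 3 to 5 bp the means were 59.3% and 59.6% in knockout samples and 88.3% and 89.5% in control samples. At over 20 bp they were 51.3% and 51.3% in knockout samples and 85.8% and 88.7% in control samples. The retained share was 73.9, 66.8, 62.7, 61.6 and 58.8% over the 5 classes of distance, falling at each step. In shared islands the knockout mean was 70.3% at 2 bp and 53.6% at over 20 bp, and in the others 59.2% and 50.1%. At each distance the shared islands were above the others in both knockout samples, so the gap between the sets was also present at equal distance.

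**Figure D3:**
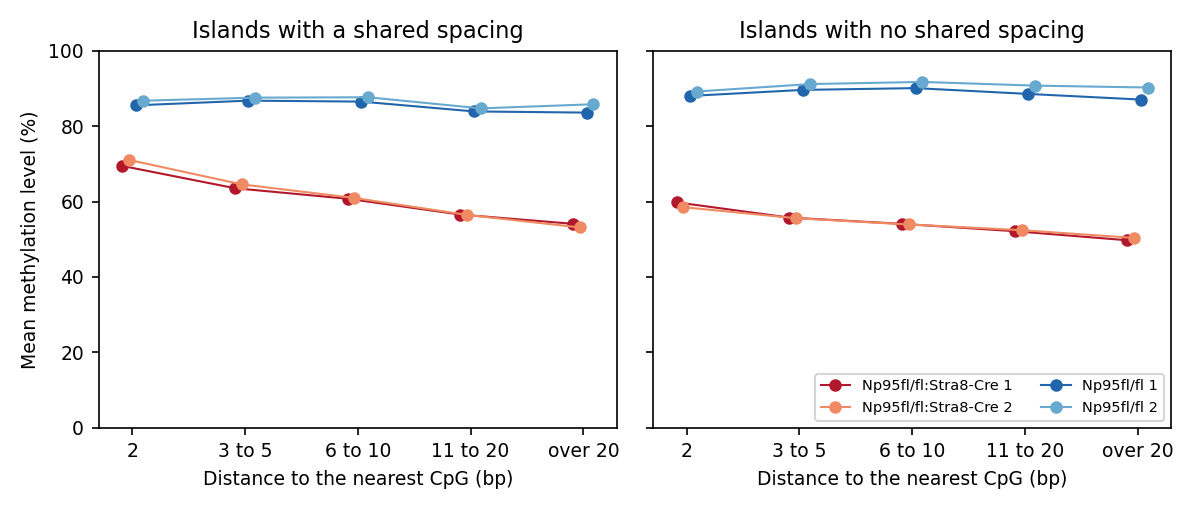
Mean methylation level of cytosines (percent, vertical axis) by the distance in bp to the nearest listed CpG, in islands with and without a shared spacing, with knockout samples in red and control samples in blue. Both knockout lines fall with distance, between 70.3 and 53.6% with a shared spacing and between 59.2 and 50.1% without, while the control lines stay between 83.6 and 91.7%.

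A like gradient was seen when the genome, islands included, was cut into tiles of 500 bp. Tiles with a level of 80% or more in both controls were grouped by the CpGs listed. Tiles with 5 to 9 CpGs stood at 47.7% and 48.4% in knockout samples, against 88.3% and 92.5% in control samples. Tiles with 30 or more stood at 57.9% and 57.6% in knockout samples, against 87.5% and 88.8% in control samples. The retained share was 53.2, 53.8, 56.1, 60.02, 64.3 and 65.5% over the 6 classes of CpG content. A tile with 30 or more CpGs nearly meets the island rule itself, so the last class is not separate from the islands. Only 228 of 21344 tiles with 30 or more CpGs (1.07%) passed the 80% rule, against 75.3% of tiles with 5 to 9. Highly methylated 10-kb windows with no island stood at 46.4% and 47.0% in knockout samples, against 86.1% and 90.6% in control samples.

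**Figure D4:**
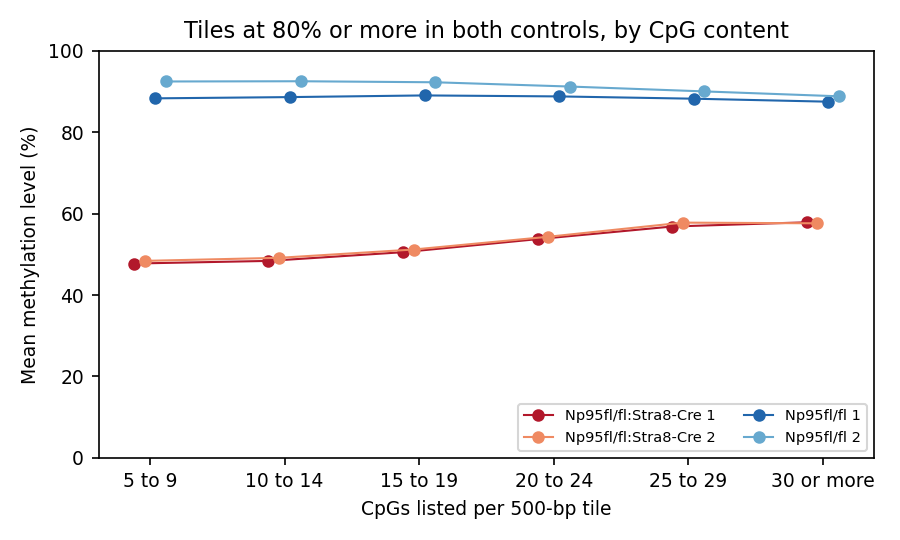
Mean methylation level (percent, vertical axis) of 500-bp tiles at 80% or more in both controls, by the number of CpGs listed per tile, with knockout samples in red and control samples in blue. Knockout levels climb to 57.9 and 57.6% at 30 or more CpGs, against 47.7 and 48.4% at 5 to 9, while control levels stay between 87.5 and 92.5%.

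The flanks of an island were not used to choose it. Cytosines 500 to 2000 bp outside the island, on both sides, were measured at 10 or more CpGs for 402 of the 613 islands. They stood at 49.4% and 50.1% in knockout samples, against 81.2% and 83.9% in control samples, a difference of -32.9 points. Of these flanks 33 held part of another island, which may itself be in the set, and over the other 369 the difference was -33.7 points. Both knockout samples lay below both control samples, and an exact permutation test over samples (two-sided) gave p = 0.33, which is as low as 2 samples per group can go. Fitted over the flanks of all islands, limma called 12441 of 14770 lower (84.2%) and 1 higher (0.00677%). Among the flanks of highly methylated islands it called 393 of 402 (97.8%). Flanks of low islands and of highly methylated islands were thus both mostly lower in knockout samples.

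On average islands stood above their own flanks in knockout samples, and more so with a shared spacing. Island minus flank was 7.10 and 6.72 points in knockout samples and 6.83 and 5.82 points in control samples over the 402 islands. With a shared spacing it was 11.03 and 11.17 points in knockout samples and 7.74 and 6.72 points in control samples (152 islands). With none it was 4.70 and 4.02 points in knockout samples and 6.28 and 5.28 points in control samples (250 islands). Of the 152 shared islands 69 belonged to spacing group 2, and 25, 11 and 12 to groups 1, 3 and 4. The flank values of shared islands thus lean on spacing group 2. The island was above its flank in both knockout samples at 108 of 152 shared islands and at 121 of 250 others. It was below its flank in both at 13 shared islands and 63 others. Over these islands the flanks themselves were alike in knockout samples, at 49.8% and 50.4% beside shared islands and 49.2% and 49.8% beside the others. In control samples they stood at 78.4% and 80.6% beside shared islands and 83.0% and 86.0% beside the others. At 500 to 1000 bp any measured CpG sufficed. There the knockout flanks stood at 46.5% and 48.0% beside 259 shared islands and 49.7% and 49.6% beside 280 others. The island levels on the control side are bounded by the rule, so these contrasts are given without a test. Further out, at 2000 to 5000 bp, the knockout level was 45.0% and 45.4% and the control level 76.7% and 80.3%. These values cover 611 islands, not only the 402 above. At 500 to 1000 bp the knockout level was 48.2% and 48.9% over 539 islands.

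**Figure D5:**
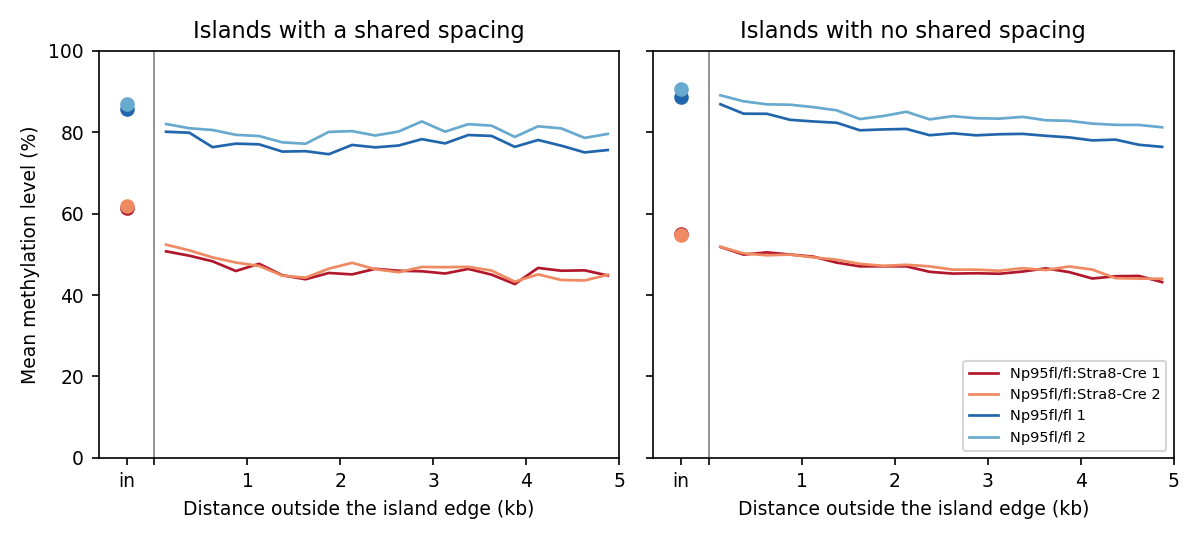
Mean methylation level (percent, vertical axis) inside highly methylated islands (points marked in) and in bins of 250 bp outside their edges up to 5 kb, both sides together, for islands with and without a shared spacing, with knockout samples in red and control samples in blue. With a shared spacing the knockout samples stand at 61.4 and 61.9% inside and at 50.7 and 52.4% in the first 250 bp outside, a larger step than in islands with none. The inside points cover 313 and 300 islands with and without a shared spacing, the first bin 197 and 276 of them. The step is thus not taken over the same islands.

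Mean levels were much alike in the outer and middle parts of the islands. The outer parts of the islands stood at 58.1% and 58.4% in knockout samples and 87.3% and 88.9% in control samples. Their middle parts stood at 58.1% and 57.9% in knockout samples and 87.2% and 88.6% in control samples. Cytosines of an island varied by 15.3 and 15.3 points (mean SD within an island) in knockout samples and by 11.4 and 10.8 points in control samples.

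The islands with the most CpGs lay in gene bodies. The longest, of 248 CpGs at chr15:76178416-76182010 in Plec, which encodes the cytoskeletal linker plectin, stood at 62.0% and 61.3% in knockout samples, against 92.3% and 89.2% in control samples. A neighbouring Plec island of 106 CpGs at chr15:76176510-76178298 stood at 61.5% and 61.4% in knockout samples, against 95.1% and 95.7% in control samples. An island of 133 CpGs at chr8:70912998-70914994 in Map1s, which encodes a microtubule-associated protein, stood at 48.8% and 50.1% in knockout samples, against 84.7% and 88.2% in control samples. An island of 113 CpGs at chr10:81143738-81145344 in Zbtb7a, a transcription factor gene, stood at 49.9% and 47.3% in knockout samples, against 85.5% and 83.8% in control samples. One of 94 CpGs at chr10:80381258-80382721 in Mex3d, which encodes an RNA-binding protein, stood at 45.6% and 48.5% in knockout samples, against 85.9% and 87.8% in control samples. In each of these islands both knockout samples were below both control samples, and none had a shared spacing. The Plec islands retained 67.9% and 64.4%, against 54.2 to 57.4% in the other 3.

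The 310 islands in genes lay in 288 genes, of which 16 held more than 1. Plec, Fat1 and Kif26a held 4 each. The 4 islands of Plec together held 478 CpGs and averaged 61.6% and 63.8% in knockout samples, against 94.4% and 94.5% in control samples. Fat1, which encodes an atypical cadherin, averaged 52.4% and 53.5% in knockout samples over its 4 islands, against 89.5% and 93.0% in control samples. Kif26a, a kinesin family gene, averaged 54.3% and 55.8% in knockout samples, against 92.4% and 95.6% in control samples. The order of these 3 genes was the same in both knockout samples, with Plec highest.

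With islands linked over gaps of up to 100 kb, 30 groups of at least 2 were found and 5 groups of 4 were tied as the largest. Besides those of Plec, Fat1 and Kif26a they lay on chromosome 8 in Mast3, Arrdc2, Kcnn1 and Map1s and on chromosome 10 in Rexo1, Csnk1g2 and Mob3a. In the chromosome 8 group the island of the kinase gene Mast3 stood at 52.9% and 54.5% in knockout samples, against 80.6% and 84.5% in control samples. That of Kcnn1, which encodes a calcium-activated potassium channel, stood at 44.0% and 42.2% in knockout samples, against 89.6% and 94.0% in control samples. The island of the arrestin-domain gene Arrdc2 stood at 54.9% and 44.5% in knockout samples, against 85.8% and 89.9% in control samples. Kcnn1 was the lowest of the group in both knockout samples, and the knockout samples differed most from each other at Arrdc2. In the chromosome 10 group, Rexo1 held 2 islands, at 47.3% and 61.2% and at 36.8% and 49.1% in knockout samples, against 86.8% and 91.4% and 86.1% and 92.3% in control samples. The island of the casein kinase gene Csnk1g2 stood at 57.9% and 59.4% in knockout samples, against 89.5% and 95.8% in control samples, and that of Mob3a at 54.4% and 58.1%, against 94.5% and 95.6%. Knockout replicate 1 was over 10 points below knockout replicate 2 at both Rexo1 islands.

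Besides the Gm33384 and Gm40034 islands, the highest knockout means were at 3 islands. An island at chr9:99493881-99494610 in Armc8, which encodes a subunit of a ubiquitin ligase complex, stood at 78.4% and 79.4% in knockout samples, against 94.1% and 96.9% in control samples. Its flanks stood at 61.6% and 59.0% in knockout samples, against 92.6% and 92.0% in control samples. An island 21579 bp from Churc1, at chr12:76743202-76743959, stood at 76.0% and 77.3% in knockout samples, against 92.1% and 93.5% in control samples. One at chr4:147839123-147839611 in the zinc finger gene Zfp933 stood at 72.7% and 79.7% in knockout samples, against 91.3% and 92.3% in control samples. The Gm33384, Gm40034 and Churc1 islands belong to spacing group 2, while those in Armc8 and Zfp933 had no shared spacing. The Gm33384 and Gm40034 values rest on 13 and 19 measured cytosines and the Armc8 value on 65.

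The lowest knockout means were mostly in genes. An island at chr2:31822614-31823105 in Fibcd1, which encodes a receptor for acetylated compounds, stood at 30.3% and 28.9% in knockout samples, against 80.9% and 81.0% in control samples. One in Cep85, a centrosomal protein gene, at chr4:134159926-134160439, stood at 30.3% and 37.5% in knockout samples, against 80.1% and 88.2% in control samples. One in Bsn, which encodes the presynaptic scaffold protein bassoon, at chr9:108110359-108111072, stood at 37.3% and 32.4% in knockout samples, against 85.5% and 86.4% in control samples. The island at chr17:33911373-33912077 in Daxx, a histone H3.3 chaperone gene, stood at 31.7% and 40% in knockout samples, against 80.9% and 86.5% in control samples. The fifth, 14772 bp from the lncRNA gene Gm31933 on chromosome 18, stood at 39.8% and 36.0% in knockout samples, against 89.8% and 93.3% in control samples. Of these 5, the Cep85 island belongs to spacing group 5 and the others had no shared spacing. The Fibcd1 flanks stood at 47.3% and 45.0% in knockout samples, against 85.4% and 89.6% in control samples. The Daxx flanks stood at 14.9% and 16.0% in knockout samples, against 26.9% and 29.7% in control samples. In both knockout samples the flanks were below the island at Daxx and above it at the other 4.

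Islands just inside and just outside the threshold overlapped in their knockout levels. Just inside were islands in S100a7l2 (61.3% and 61.6% in knockout samples, against 80.1% and 80.1% in control samples), Cep85, Pate2 (60.7% and 62.2%, against 82.2% and 80.1%), near Gm51895 (29.8% and 47.8%, against 80.1% and 87.0%) and near Fkbp1a-ps3 (62.7% and 55.9%, against 80.1% and 84.7%). Just outside were islands in Zfp804b (64.5% and 63.1%, against 79.96% and 86.3%), near Gm41099 (59.9% and 70.4%, against 79.95% and 80.6%), near Gm40463 (59.8% and 53.4%, against 81.5% and 79.9%), in Gm9257 (61.7% and 52.0%, against 79.9% and 85.7%) and in Gm40843 (56.7% and 61.9%, against 79.9% and 82.4%).

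Of lists of genes with a role in germ cells or methylation, 3 genes had a highly methylated island. The island in Asz1, a piRNA pathway gene of the germline, at chr6:18063123-18063527, stood at 76.2% and 75.3% in knockout samples, against 95.5% and 93.8% in control samples. This island overlapped no promoter window, and the nearest start with a window, that of Wnt2, was 32678 bp away. The island in Zpbp, which encodes an acrosomal zona pellucida binding protein, at chr11:11287234-11287776, belongs to spacing group 1 and stood at 73.3% and 75.7% in knockout samples, against 89.9% and 92.7% in control samples. The island in Tet3, which encodes an enzyme that oxidises 5-methylcytosine, at chr6:83367963-83368511, stood at 51.8% and 51.3% in knockout samples, against 87.4% and 89.2% in control samples. Asz1 and Zpbp retained 80% and 81.6%, above the mean of the set, and Tet3 retained 58.4%. By list, highly methylated islands were 1 of 15 at germline genes, 1 of 7 at spermiogenesis genes and 1 of 13 at methylation machinery genes. They were 0 of 41 at maternally methylated imprinted genes, 0 of 9 at paternally methylated imprinted genes, 0 of 31 at meiosis genes, 0 of 40 at clustered protocadherins and 0 of 13 at Sertoli and Leydig cell genes. Over all islands the share was 3.84%, and the counts per list are too small to be set against it. Only islands in or within 1 kb of a listed gene were counted, so imprinting control regions between genes are not covered.

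As a check of the labelled cell type, 14 of the 15 islands in or near germline genes that somatic cells methylate were low. Control samples alone set that class, so the count does not check the knockout samples. The island inside Asz1 was the exception, and it overlapped no promoter window, so it does not give the level of the Asz1 promoter. The 15 averaged 19.8% and 15.4% in knockout samples, against 12.1% and 11.1% in control samples. Without Asz1 they averaged 15.8% and 11.1% in knockout samples, against 6.15% and 5.21% in control samples, a control level that choosing low islands bounds. At 11 of these 14 islands both knockout samples were above both control samples. The 13 islands at Sertoli and Leydig cell genes averaged 1.98% and 2.14% in knockout samples and 1.36% and 1.40% in control samples. Both knockout samples were above both control samples at 8 of these 13. The part of somatic cells in the levels of the highly methylated islands was not tested.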

How the data were processed

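DNA methylation was measured in 2 Np95fl/fl:Stra8-Cre and 2 Np95fl/fl samples of male germ cells. The authors deposited methylation as a percent per sample for every listed cytosine, both strands apart. The build was mm10, per the submitters' processing notes. The table's title names a minimum of 10 reads, the read counts are not given, and the sources used here name no aligner or caller. No confidence interval was computed, and intervals of single levels are unknown. Separate animals are not stated in the labels, so the p-values rest on a spread that may be technical.

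The highly methylated islands, the gene lists and the tests were chosen with earlier results of these data known. Adjacent listed positions were paired as 1 CpG. An island's level was the mean over its cytosines with a value in all samples, and every island had equal weight in a mean. Each difference is the knockout level less the control level, in points. Of CpGs in RefSeq promoter windows 99.1% were listed at the same positions, so GRCm38.p6 gene positions were used. The test was limma 3.58.1 in R 4.3.3 with a trended, robust prior, on log2 odds of the level with an offset of 0.01, over all islands or all flanks with 10 or more CpGs measured. For flanks the variance was wholly pooled over regions of like level. Tested on simulated data, the island fit recovered 36% of losses of 10 points, 96% of 20 points and 100% of 30 points. There were 0 false calls among the simulated islands with no planted loss. All simulated samples took their noise from the spread of the control samples, and losses were planted only outside the low islands. In the highly methylated islands knockout samples differed by a median of 4.21 points and control samples by 2.08, so recovery may be overstated.

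Islands were named by a rule: the 5 with the most CpGs, the 5 highest and 5 lowest in knockout samples, the 5 on either side of the threshold, the largest groups within 100 kb, and islands at listed genes. Shared spacing, spacing groups, aligned runs and the printed promoter windows were chosen after the data were seen. Promoter windows count only for genes that RefSeq windows were given for. Further tools were pandas 2.3.3, NumPy 2.4.6 and SciPy 1.17.1 in Python 3.11.15, with Biopython 1.88, PyArrow 21.0.0, Matplotlib 3.10.9 and data.table (version 1.17.8). Alternatives covered the threshold, the island definition, the cytosines used, the test and leaving out each sample.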

Additional observations from a re-analysis of the deposited data

How the results depend on the processing

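The number of highly methylated islands depended on how they were defined. It was 368 at 85% or more in both controls and 146 at 90%, 2252 with runs of 25 CpGs and 40 with runs of 40, and it lay between 641 and 701 with islands chosen without control replicate 2 or 1. The knockout level was 58.3% and moved little: 57.3% at a threshold of 75, 58.6% at 85, 58.5% at 90, 58.0% with the mean of both controls, 56.0% and 56.7% with runs of 25 and 40, 57.6% with 20 measured CpGs, 57.1% with every cytosine equal and 58.0% on each sample's own cytosines. Leaving out 1 sample gave 57.7 to 58.4%, the lowest with islands chosen without control replicate 1. The retained share was 66.3%, and 64.7% at 85, 62.5% at 90, 63.0% and 65.3% with runs of 25 and 40, 65.4% with 20 measured CpGs, 64.5% with every cytosine equal, 65.8% on own cytosines, and 66.2 to 66.4% with 1 sample left out. Chosen on control replicate 1 and read in control replicate 2 it was 66.0%, and 67.1% the other way round. The cause of these shifts was not tested.

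The 917 islands called lower became 0 where limma used only the spread of the island itself, which leaves 2 samples per group to estimate it, and 611 to 868 with 1 sample left out, the fewest without knockout replicate 1. Flanks called lower numbered 12441 with all samples and 12231 to 12585 with 1 sample left out, and the flank difference was then -34.2 to -31.5 points. Same-numbered samples did not deviate together (correlation 0.0734 over islands), so the numbers were not taken to pair samples. With the replicate number as a block 948 islands and 12442 flanks were called lower. No alternative reversed a direction among those run. Unknown read depth limits all single-cytosine values.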
